A study of Nothobranchius furzeri with 25 samples.

Results

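The 150 genes described here were those whose mean expression in the killifish brain at 39 weeks lay farthest above the highest of the means at 5, 12, 20 and 27 weeks. They were chosen from 11541 genes of the first of 2 deposited count tables, which holds 18228 transcript contigs, each paired with a zebrafish Ensembl gene. For each contig the count was scaled to CPM (its share of the library total, times 1000000), and m is the mean of log2(CPM + 0.5) over the 5 brains of an age. The gap is m at 39 weeks minus the largest m of the 4 younger ages, on the log2 scale. A contig could be chosen if its ID number was above 2400 and its mean CPM over all libraries was at least 5. The values at 39 weeks thus chose the genes, and their height at that age is a description of the choice, not a result.

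RNA came from the whole brain of males of the turquoise killifish, Nothobranchius furzeri. All belonged to MZM-04/10, a strain derived from the wild, and were killed fasted at one hour of the morning, with 1 library per animal. There were 5 brains at each of 5, 12, 20, 27 and 39 weeks, 25 in all, and the labels give no trait but age that sets the groups apart. The titles of 6 libraries carry the mark w0w1, whose meaning the labels do not give. They were JM96 (5 weeks), JM105 and JM107 (12 weeks), JM86 (20 weeks), JM69 (27 weeks) and JM12 (39 weeks). The strain is short-lived, so that 27 weeks is near its median lifespan and 39 weeks is reached by a minority of animals. Males of a single strain limit the groups as a model. In whole-brain RNA, more cells of a type and more RNA per cell cannot be told apart.

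Ageing of the vertebrate brain is accompanied by gliosis, activation of microglia, slower neurogenesis and shifts in protein synthesis and turnover. Fish keep dividing neural stem cells in adult life, and in this species such changes take weeks rather than years. The present genes were picked by their timing and not by a pathway. None of them was named here. The files pair contigs with zebrafish gene IDs and not with symbols, and the deposited contig descriptions were not used. The held part of the study's gene table gave names to 1994 contigs, all with ID numbers of 2316 or lower. Those names come from the start of the alphabet and, apart from a few that open with a digit, cover only symbols from A to C1QL4. Members are therefore called by the rank of their gap, from 1 (largest) to 150. Genes with names that reached the same gap are described at the end, and no sequence of the members was held.

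Depth was similar between ages, with 15877033 to 23985244 counts per library at 39 weeks and 15690560 to 26378519 over all 25. The median of the 11541 genes moved by at most 0.05 on the log2 scale in any library. The members had the same share of reciprocal best hits in zebrafish as all 11541 genes (82.0% against 82.1%), and a similar contig length, with a median of 2524 bases against 2380 bases, recovered from the ratio of count to RPKM. Their level per length was lower, with a median RPKM of 11.1 in members against 15.6 in all 11541 genes, and it spanned 0.76 to 607. The 150 members stood for 149 zebrafish genes. Ranks 45 and 58 shared 1 zebrafish ID and carried neighbouring contig numbers, so that they may be parts or copies of 1 gene and share reads.

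The gap was small for most members. It was 0.82 at rank 1, had a median of 0.29 and was 0.24 at rank 150, which are 1.77-fold, 1.23-fold and 1.18-fold differences on the scale of CPM + 0.5. Only 13 members had a gap above 0.5. At the edge of the choice there was no step: ranks 148, 149 and 150 had gaps of 0.2402, 0.2395 and 0.2394, and the 3 genes just outside had 0.2386, 0.2385 and 0.2382. The opposite choice, the 150 genes whose mean at 39 weeks lay farthest below the lowest younger mean, gave wider gaps, with a largest of 3.27, a median of 0.52 and a smallest of 0.44. Of those 150, 2 had all brains of 39 weeks below all younger brains, against a background of 0.078% of the 11541 genes. The gap of 3.27 belonged to an uneven gene, with 0.69, 436, 0.81, 0.88 and 0.79 CPM in the brains of 39 weeks. Brains JM107 and JM109 of 12 weeks were as low, with 0.57 and 0.74 CPM. The tests given below called that gene at 39 weeks against no younger age. Of the 11541 genes, 2394 had their highest mean at 39 weeks and 3052 their lowest.

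The label under which these genes were grouped, a rise at 39 weeks only, described the members in part. In order of age (5, 12, 20, 27 and 39 weeks) the median m over the members was 4.36, 4.39, 4.63, 4.57 and 5.02. This median was thus already higher at 20 and 27 weeks than at 5 and 12 weeks. The tests given below called no member between 12, 20 and 27 weeks. The highest younger mean was at 20 weeks in 68 members, at 27 weeks in 55, at 5 weeks in 20 and at 12 weeks in 7. The rule used the highest younger mean, so that the ages of the highest and lowest younger means are not free of the choice. Over all 11541 genes the youngest age held the highest younger mean most often, in 43.2%, and 20 weeks in 18.2%. The lowest younger mean was at 5 weeks in 81 members (54.0%), at 12 weeks in 50 (33.3%), at 20 weeks in 8 (5.33%) and at 27 weeks in 11 (7.33%). Over all 11541 genes 5 weeks was also the most frequent, with 34.8%, followed by 27 weeks with 24.2%, 20 weeks with 22.4% and 12 weeks with 18.6%. In the median member the gap made up 44.8% of the whole distance between the lowest younger mean and the mean at 39 weeks, and in 55 members it made up more than 50%. In 31 members every age had a higher mean than the age before it.

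**Figure D1:**
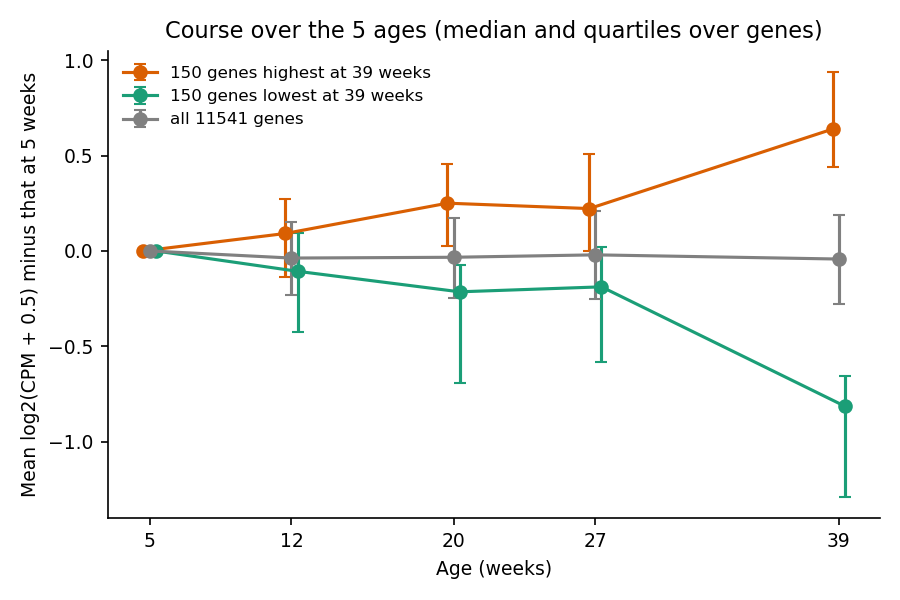
The x axis is age in weeks and the y axis is the mean of log2(CPM + 0.5) at an age minus that at 5 weeks, with points at the median and bars from the lower to the upper quartile over genes. The 150 genes highest at 39 weeks had medians of 0.09, 0.25, 0.22 and 0.64 from 12 to 39 weeks, and the 150 genes lowest at 39 weeks ended at a median of -0.81. The median of all 11541 genes stayed near 0, with quartiles of -0.28 and 0.19 at 39 weeks.

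Tests between ages were made with edgeR's quasi-likelihood test on the counts of the 16484 contigs that passed its filter, with TMM factors, in 1 model of the 5 ages, and a Benjamini-Hochberg adjusted p under 0.05 was called. Before 39 weeks, the step with calls among the members was that between 5 and 12 weeks: 29 of 150 members (19.3%) were called higher at 12 than at 5 weeks, against a background of 10.8% of all contigs tested. None was called lower there (edgeR: 2 at an unadjusted p under 0.05, DESeq2: 0), against a background of 13.0%. The choice of the members limits every younger mean from above, so these counts are not free of the rule. The 29 became 14 without the 6 libraries that carry w0w1 in their titles, 14 without JM100 and 19 without JM101, JM96 or JM113.

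Between 12, 20 and 27 weeks edgeR called no member, and the background was close to 0. At 20 against 12 weeks the background was 0.0485% higher and 0.00607% lower, and 30 members were higher and 1 lower at an unadjusted p under 0.05. At 27 against 12 weeks it was 0.00607% higher and 0.0243% lower, with 25 members higher and 1 lower at an unadjusted p under 0.05. At 27 against 20 weeks it was 0.0% both ways, with 2 members higher and 4 lower at that level. DESeq2 called 0 members in these 3 comparisons. The fitted median over the members was a log2 fold change of 0.14 for 12 against 5 weeks, 0.19 for 20 against 12 weeks and -0.03 for 27 against 20 weeks, beside 0.01, 0.00 and 0.00 over all contigs tested.

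The comparisons with 39 weeks were those the rule used. Their counts describe the choice and do not measure how firmly the means stood apart from the spread of brains. Of 150 members, 16 were called higher at 39 than at 27 weeks (background 0.546%), 2 higher at 39 than at 20 weeks (background 0.0546%), 106 higher at 39 than at 12 weeks (background 5.81%) and 122 higher at 39 than at 5 weeks (background 18.2%). No member was called higher at 39 weeks than at each of the 4 younger ages by edgeR, nor was any contig of the table (background 0.0%). At an unadjusted p under 0.05, 90 members were higher in all 4 comparisons, and DESeq2 called 22 in all 4. By number of calls, 20 members had none of the 4, 30 had 1, 84 had 2 and 16 had 3. The median log2 fold change over members was 0.42 against 27 weeks, 0.37 against 20 weeks, 0.57 against 12 weeks and 0.71 against 5 weeks.

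The count for 39 against 27 weeks rested on single libraries. It was 0 without JM62 (27 weeks), JM1 or JM15 (39 weeks), 2 without JM52, JM66 (27 weeks) or JM12 (39 weeks), and 5 without JM69 (27 weeks). It was 60 without JM13 and 29 without JM18 (39 weeks), and 41 without JM72 (27 weeks). Leaving out a library of another age also moved it, to 6 without JM105, 9 without JM101, 9 without JM96 and 10 without JM109. DESeq2 called 57, and 2 were called without the 6 libraries marked w0w1. The count for 39 against 20 weeks was 21 without JM13, 16 without JM75, 5 without JM107 or JM18 and 4 without JM113, 1 without JM101, JM96, JM97, JM104, JM105, JM66 or JM12, and 0 without JM109, JM79, JM84, JM86, JM1 or JM15. DESeq2 called 42 there. The count for 39 against 12 weeks was 32 without the 6 libraries marked w0w1 and 70 without JM12. The count for all 4 comparisons was 19 without JM13, 6 without JM75, 2 without JM107, JM113 or JM18 and 1 without JM52 or JM72.

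The 5 brains of 39 weeks did not carry the members alike. Their values made up the mean that chose the genes, so the division between them is a description too. For each brain the median over the 150 members of log2(CPM + 0.5) minus the mean of the 20 younger brains was 0.64 in JM1, 0.60 in JM15, 0.59 in JM12, 0.29 in JM13 and 0.29 in JM18. The 20 younger brains lay between -0.18 (JM100, 5 weeks) and 0.24 (JM75, 20 weeks). JM13 and JM18 were thus nearer to JM75 than to the other 3 brains of their own age, although all 5 stood above all younger brains. JM1 and JM12 had the smallest library totals at 39 weeks (15877033 and 16158791) and JM15 and JM18 the largest (23897135 and 23985244). The part of library totals in this split was not tested. One of the 5, JM12, carries the title mark w0w1, whose meaning the labels do not give.

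**Figure D2:**
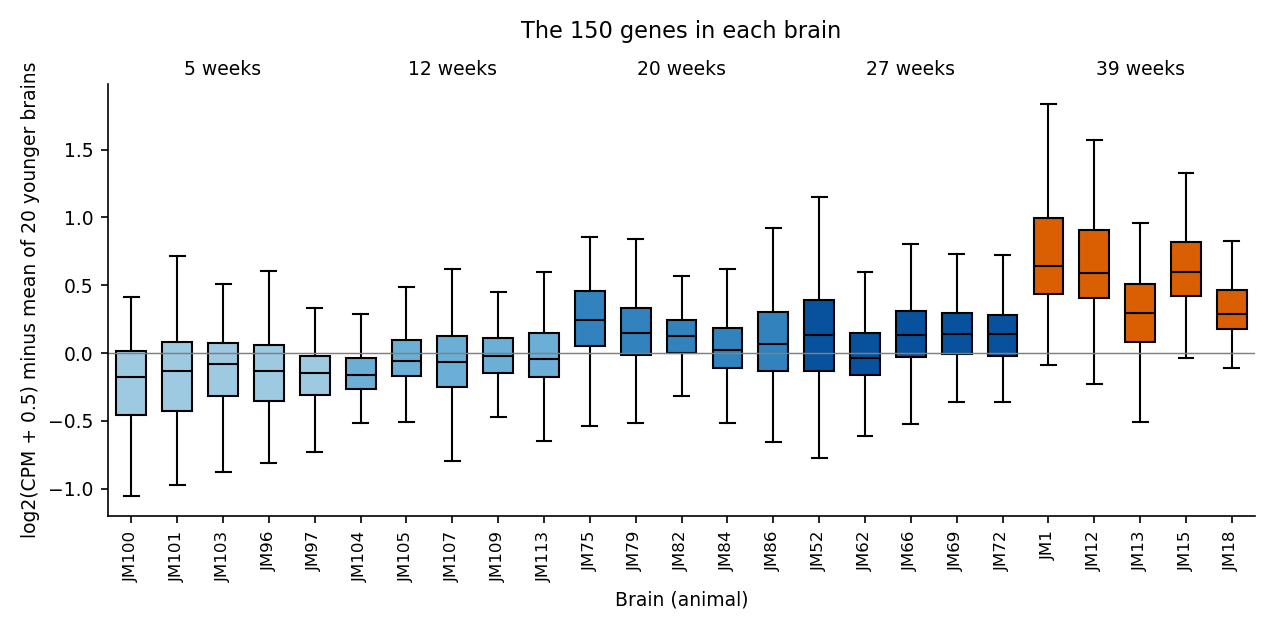
Each box shows, for 1 brain, the 150 genes' log2(CPM + 0.5) minus their mean over the 20 younger brains (y axis), with the median, the quartiles and whiskers to 1.5 times the quartile range, and brains stand on the x axis by age. Medians were 0.29 to 0.64 in the 5 brains of 39 weeks and -0.18 to 0.24 in the 20 younger brains, with JM13 and JM18 lowest at 39 weeks.

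Single genes followed the same division. JM1, JM12 and JM15 all lay above both JM13 and JM18 in 87 of 150 members (58.0%), against 17.5% of all 11541 genes. JM1 was the highest of the 5 brains in 50 members, JM12 in 50, JM15 in 37, JM13 in 9 and JM18 in 4. JM13 was the lowest in 69 members, JM18 in 36, JM12 in 22, JM1 in 21 and JM15 in 2. The median SD of log2(CPM + 0.5) between the 5 brains of an age was, from 5 to 39 weeks, 0.17, 0.21, 0.25, 0.22 and 0.29 over members, beside 0.14, 0.15, 0.17, 0.17 and 0.16 over all 11541 genes. Members thus had a wider spread than the median gene at every age, and the widest at 39 weeks. The opposite choice, the 150 genes lowest at 39 weeks, spread wider still at every age, with 0.33, 0.33, 0.30, 0.39 and 0.38. The gap is not scaled to the spread, so the spread at the younger ages is not free of the rule. The highest brain of 39 weeks was over 2-fold above the lowest in 47 members (31.3%, against 8.08% of all 11541 genes). The members' deviations at 39 weeks ran together, with a median pairwise Pearson's r of 0.38 over 5 brains, against 0.01 over all pairs of the 11541 genes. Within the younger ages the same measure over 20 brains was 0.07 for members and 0.01 for all genes. The mean over the 5 brains of 39 weeks chose the genes, so the spread and the correlations at that age are not free of the rule. These correlations are over few brains that share depth and composition within a library, and are a description.

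Among younger brains, JM75 of 20 weeks held the highest younger value in 36 members, JM52 of 27 weeks in 24, JM79 of 20 weeks in 21 and JM86 of 20 weeks in 13. The brains of 5 and 12 weeks together held it in few, JM101 with 6 and JM107 with 5 being the most frequent of them.

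The members were also chosen again without 1 brain of 39 weeks, and the left-out brain was set against the highest younger mean of each newly chosen gene. That brain took no part in the new choice, but the younger means did, and genes with low younger means were favoured. The shares below are therefore not free of the rule. JM15 lay above it in 88.0% of 150 genes (median difference 0.29), JM1 in 73.3% (0.19), JM12 in 68.0% (0.19), JM18 in 56.7% (0.04) and JM13 in 37.3% (-0.10). Over all genes that could be chosen, the share was 28.2% for JM15, 26.0% for JM1, 28.7% for JM12, 22.3% for JM18 and 23.8% for JM13. The difference in the left-out brain was below the median gap of the 4 brains that chose the genes in 4 of the 5 choices and equal to it, at 0.29, for JM15. Over all genes that could be chosen, the median difference was -0.20 to -0.15. Between 98 (without JM1) and 122 (without JM18) of the 150 members were chosen again.

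Of the 150 members, 7 had all 5 brains of 39 weeks above all 20 younger brains in CPM, against a background of 0.165% (19 of 11541 genes), and since the rule favours such genes the count is a description. A further 14 members had 4 brains of 39 weeks above all younger ones, 35 had 3, 53 had 2, 29 had 1 and 12 had none. The 7 genes without overlap were not those of widest gap. They ranked 31, 61, 82, 85, 86, 109 and 144, with a median SD at 39 weeks of 0.09, while none of the 20 members of largest gap was among them and the median SD of those 20 was 0.58. The count of 7 became 13 without JM13, 12 without JM72 and 11 without JM75, and leaving out a brain can only keep or raise it.

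**Figure D3:**
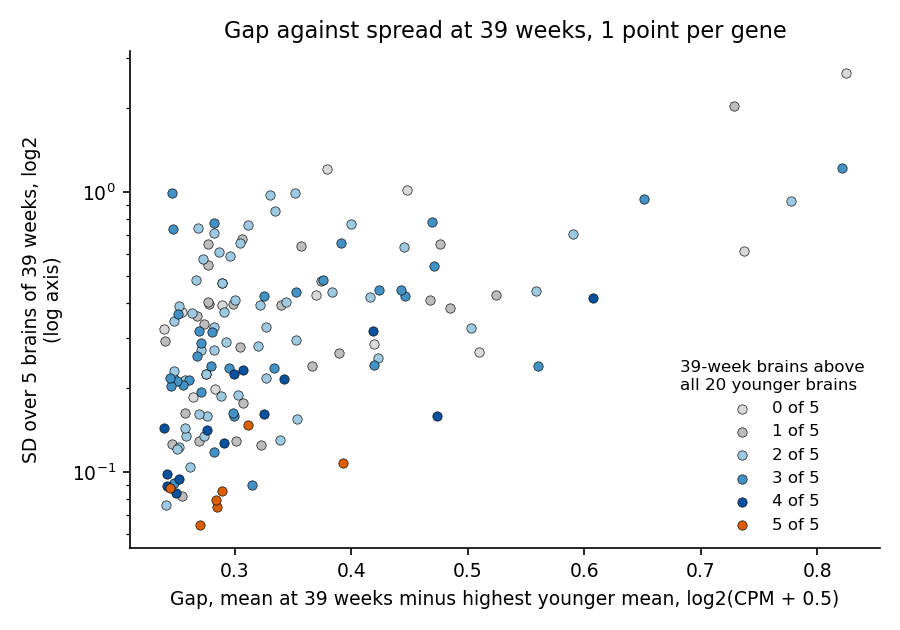
Each point is 1 of the 150 genes, with the gap on the x axis (log2 scale) and the SD of log2(CPM + 0.5) over the 5 brains of 39 weeks on the y axis (log axis), shaded by how many brains of 39 weeks lay above all 20 younger brains. The 7 genes with 5 of 5 lie low, at gaps of 0.24 to 0.39, and the widest gaps go with large SDs.

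Rank 31 (zebrafish ID ENSDARG00000077400) had the widest gap of the 7. It had 1005, 989, 869, 991 and 869 CPM in the brains of 39 weeks, against 630 to 855 CPM at 27 weeks, 659 to 800 CPM at 20 weeks, 504 to 761 CPM at 12 weeks and 509 to 567 CPM at 5 weeks. Every brain of 39 weeks was above JM52, the highest younger brain, and the 3 brains high over the members at large were again the higher ones here. For this and every member below, the rule used the values at 39 weeks, so each p for a comparison with that age describes the choice. The log2 fold change of rank 31 was 0.43 (standard error 0.09, edgeR adjusted p = 0.0346) for 39 against 27 weeks and 0.40 (adjusted p = 0.0541) for 39 against 20 weeks. The adjusted p against 27 weeks ranged from 0.00174 to 0.154 over the alternatives, and the call held in 19 of the 25 fits without 1 library.

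Rank 61 had 27.2, 30.9, 29.2, 29.8 and 36.0 CPM at 39 weeks, against 18.4 to 25.8 CPM at 27 weeks and 22.1 to 26.8 CPM at 20 weeks. Here JM18, otherwise low, was the highest brain. By age, from 5 to 39 weeks, its means were 16.5 ± 1.66, 19.7 ± 3.26, 24.5 ± 1.99, 20.8 ± 3.08 and 30.6 ± 3.29 CPM (SD, n = 5). The gene was thus higher at 20 weeks than at 27 weeks before its highest mean at 39 weeks.

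Rank 85 was flat at the younger ages. It had 39.0, 39.4, 34.5, 38.5 and 38.1 CPM at 39 weeks, against means of 29.6 ± 1.52, 30.1 ± 2.86, 31.1 ± 2.34 and 29.9 ± 2.86 CPM at the younger ages from 5 to 27 weeks (SD, n = 5). The lowest brain of 39 weeks, JM13, was just above the highest younger brain, JM79 with 34.2 CPM. Of the 7 it came nearest to the course the label describes, with a log2 fold change of 0.36 (standard error 0.08, edgeR adjusted p = 0.0414) for 39 against 27 weeks and 0.40 (adjusted p = 0.000483) for 39 against 5 weeks. The adjusted p against 27 weeks ranged from 0.00374 to 0.158 over the alternatives, and the rule used these comparisons.

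The other 4 members without overlap, ranks 82, 86, 109 and 144, had their lowest mean at 5 weeks and the next at 12 weeks, with means at 20 and 27 weeks close to each other. None of them was called by edgeR between 12, 20 and 27 weeks. From 5 to 39 weeks rank 86 had means of 558 ± 64.5, 665 ± 54.6, 782 ± 40.5, 790 ± 102 and 956 ± 52.7 CPM (SD, n = 5). Rank 109 had 91.2 ± 10.3, 105 ± 8.05, 119 ± 7.87, 120 ± 12.5 and 145 ± 6.52 CPM over the same ages. In ranks 82, 86, 109 and 144 the adjusted p for 39 against 27 weeks lay between 0.0595 and 0.0896 (edgeR), so that none of the 4 was called in that comparison.

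**Figure D4:**
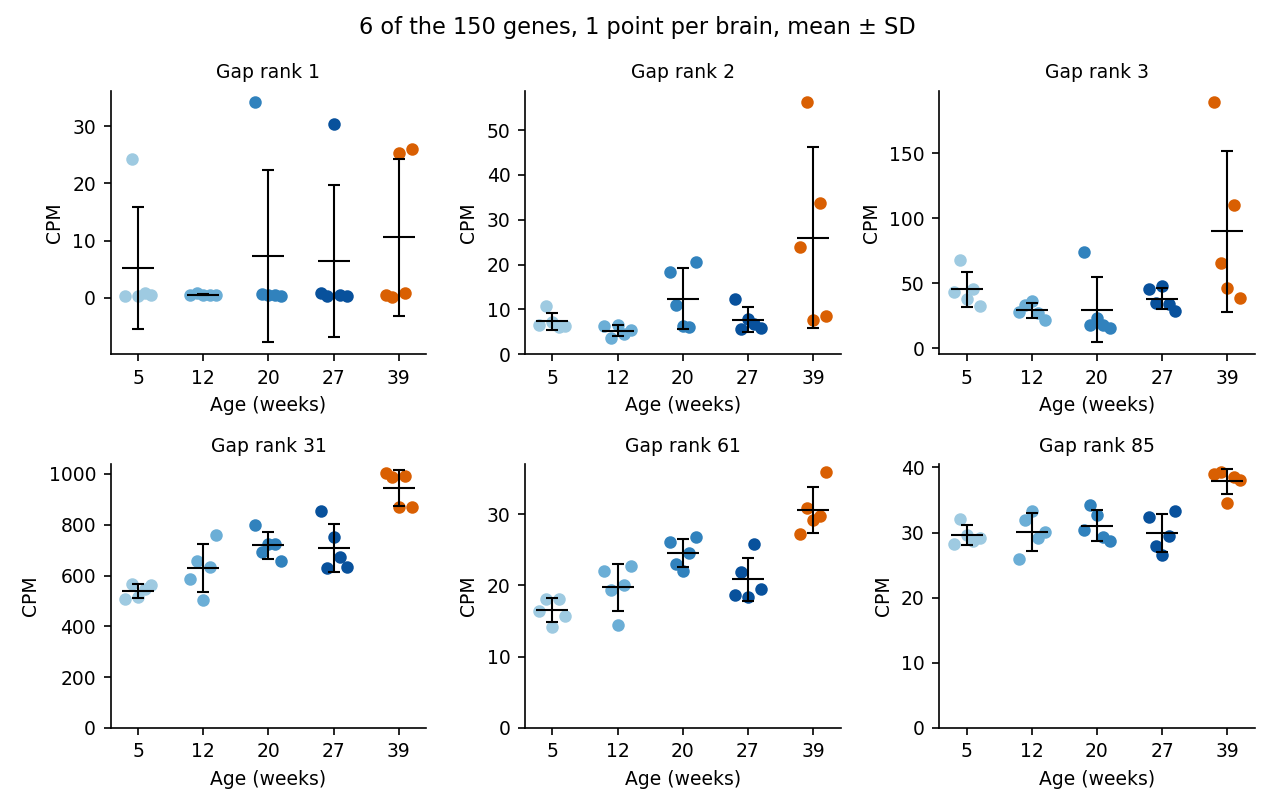
The 6 panels show CPM (y axis) by age in weeks (x axis) for the genes of gap rank 1, 2, 3, 31, 61 and 85, with a point per brain and the mean ± SD over 5 brains. Rank 1 has 5 high brains spread over 4 ages, ranks 2 and 3 have some high brains at 39 weeks, and in ranks 31, 61 and 85 all brains of 39 weeks lie above all younger brains.

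The member of widest gap did not separate the ages at all. Rank 1 had 0.45, 0.12, 25.3, 0.75 and 26.0 CPM in JM1, JM12, JM13, JM15 and JM18. The same 2 states occurred at younger ages: 5 of the 25 brains had 24.2 CPM or more (1, 0, 1, 1 and 2 brains in the ages from 5 to 39 weeks), and the other 20 had at most 0.87 CPM. Its gap came from 2 high brains at 39 weeks against 1 at each of 3 younger ages, and edgeR called no difference (39 against 27 weeks: log2 fold change 0.76, standard error 1.43, adjusted p = 0.797). That log2 fold change was 0.095 without JM18, 0.15 without JM13 and 4.53 without JM66, and it passed the test in none of the fits without 1 library. The 2 high brains of 39 weeks were JM13 and JM18, the pair that was low over the members as a whole. Rank 5 was as uneven, with 6.80, 16.9, 79.8, 189 and 138 CPM at 39 weeks and values of 0.55 to 59.0 CPM at 5 weeks and 2.78 to 189 CPM at 27 weeks. In all, 13 members had a highest library more than 10-fold above the lowest on the scale of CPM + 0.5 (8.67%, against 1.78% of all 11541 genes), and ranks 1 to 5 were among them.

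Ranks 2, 3 and 6 were high in JM1, JM12 and JM15. Rank 2 had 24, 56.2, 7.65, 33.7 and 8.55 CPM in JM1, JM12, JM13, JM15 and JM18, against 5.55 to 12.4 CPM at 27 weeks and 6.09 to 20.6 CPM at 20 weeks. In the comparisons that the rule used, the gene was called against 27 weeks (log2 fold change 1.77, standard error 0.43, edgeR adjusted p = 0.0480, over alternatives 0.00835 to 0.203) and not against 20 weeks (1.08, adjusted p = 0.190). The call against 27 weeks held in 7 of the 25 fits that each left out 1 library. JM13 and JM18 lay inside the range of the younger brains.

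Rank 3 had 189, 65.2, 46.5, 110 and 38.7 CPM at 39 weeks in the same order of brains, against 29.0 to 47.7 CPM at 27 weeks, and JM75 with 74.2 CPM was far above the other brains of 20 weeks. Rank 6 had 471, 265, 107, 385 and 130 CPM at 39 weeks, against 122 to 172 CPM at 27 weeks, and again JM75 was the highest brain of 20 weeks, with 199 CPM. In both genes JM1 was highest and JM13 and JM18 were within the younger range. The edgeR adjusted p for 39 against 27 weeks was 0.0858 for rank 3 and 0.0930 for rank 6.

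Rank 7 (ENSDARG00000076528) combined a wide gap with less overlap. It had 68.0, 31.7, 47.2, 61.1 and 49.5 CPM at 39 weeks, against 14.4 to 36.4 CPM at 27 weeks, 14 to 35.8 CPM at 20 weeks, 21.4 to 31.3 CPM at 12 weeks and 27.1 to 38.4 CPM at 5 weeks. All brains of 39 weeks but JM12 were above all younger brains. By these ranges 5 weeks, and not 27 weeks, was the younger age nearest to 39 weeks. For 39 against 27 weeks, a comparison that the rule used, the fitted log2 fold change was 1.15 (standard error 0.23, edgeR adjusted p = 0.0341). That call was lost in turn without JM52 (adjusted p = 0.0803), JM62 (0.0839), JM69 (0.0549), JM1 (0.101) and JM15 (0.104), with a range over all alternatives of 0.000792 to 0.104.

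The 2 members called higher at 39 than at 20 weeks were ranks 99 and 101. Rank 99 had 64.4, 71.7, 68.0, 66.3 and 55.2 CPM at 39 weeks, against 44.9 to 52.97 CPM at 20 weeks, which do not overlap. Its log2 fold change was 0.39 against 20 weeks (standard error 0.08, edgeR adjusted p = 0.0449) and 0.30 against 27 weeks (adjusted p = 0.0559), both being comparisons that the rule used.

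The member that took most reads, rank 119, had 1489, 1531, 1405, 1579 and 1317 CPM at 39 weeks, against means of 716 ± 71.2, 990 ± 38.2, 1197 ± 110 and 1231 ± 191 CPM at the younger ages from 5 to 27 weeks (SD, n = 5). Its largest difference was between 39 and 5 weeks (log2 fold change 1.07, edgeR adjusted p = 1.77e-08), and JM52 of 27 weeks, with 1509 CPM, exceeded 3 of the 5 brains of 39 weeks. The 10 members with most reads had gaps of 0.24 to 0.39.

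By likeness over the 20 younger brains (Pearson's r of log2(CPM + 0.5), a description), the nearest genes of ranks 1, 2 and 3 were mostly not members. For rank 1 the 3 nearest had r of 0.91, 0.75 and 0.73 and for rank 2 r of 0.85, 0.81 and 0.81, and none of these 6 was a member. For rank 3 they had r of 0.91, 0.91 and 0.88, and the first was rank 34. Of the 8 that were not members, 3 had their highest mean at 39 weeks, with gaps of 0.15, 0.035 and 0.012, and the other 5 did not.

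Genes with a name lay outside the ID range of the rule and are not members, and those that reached the gap of rank 150 were picked out after their values were seen. Of 1477 named contigs with a mean CPM of at least 5, 18 did so (1.22%, close to the 1.30% of the 11541 genes that the choice of 150 fixes). They were APOEB, APOBL, C17H14ORF159, APCS, C1QC, BLNK, C15ORF58, ACANB, BRAP, ALDH18A1 (1 OF 2), C19H1ORF85, C17ORF39 (2 OF 2), ACSL5, ACER2, BEST3, ATP2A2 (2 OF 2), ALKBH5 and ADRB1. Symbols with a copy number in brackets stand for duplicated genes whose copies may split reads. Since the names end at C1QL4, the 18 are no sample of all genes, and apolipoproteins, C1q chains and other families early in the alphabet had more chance to be among them. Of the 18, edgeR called 3 higher at 39 than at 27 weeks (background 0.546%), 0 higher at 39 than at 20 weeks (8 at an unadjusted p under 0.05, and 3 by DESeq2, background 0.0546%), 8 higher at 39 than at 12 weeks (background 5.81%) and 16 higher at 39 than at 5 weeks (background 18.2%). These comparisons hold the values at 39 weeks that picked out the 18, so that the counts are a description.

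APOEB, an apolipoprotein E that carries lipids and is made by microglia in the zebrafish brain, had 688, 1489, 772, 1409 and 739 CPM at 39 weeks, against 392 to 906 CPM at 27 weeks. Its gap was 0.77, and its high brains were JM12 and JM15 without JM1. The log2 fold change for 39 against 27 weeks was 0.82 (standard error 0.22, edgeR adjusted p = 0.0626, over alternatives 0.0124 to 0.213). APOBL, an apolipoprotein B of lipoprotein particles, had 10.7, 5.51, 12.5, 54.2 and 59.7 CPM at 39 weeks, against 2.16 to 14.6 CPM at 27 weeks, with JM15 and JM18 far above the other 3 (adjusted p = 0.207, edgeR).

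C1QC, a chain of the complement protein C1q, had 7.68, 14.5, 13.8, 33.4 and 14 CPM at 39 weeks, against 5.42 to 10.5 CPM at 27 weeks and 6.73 to 23.1 CPM at 20 weeks. BLNK, an adaptor in B cell receptor signalling, was highest in the same brain, JM15, with 29.6 CPM. APCS, a pentraxin known as serum amyloid P component, was too, with 57.0 CPM. The edgeR adjusted p for 39 against 27 weeks was 0.123 for C1QC, 0.0807 for BLNK and 0.109 for APCS, and in C1QC and APCS 4 of the 5 brains of 39 weeks lay within the range of the brains of 20 weeks. C1QB, another chain of C1q with a named contig, did not have its highest mean at 39 weeks. It was called at 39 weeks against no younger age (edgeR). Of the microglia and macrophage markers fixed for the check of cell types, 2 of 17 had a named contig (APOEB and AIF1L). Their summed level, most of which was APOEB, was 771 to 1568 CPM at 39 weeks, against 495 to 975 CPM at 27 weeks and 414 to 457 CPM at 5 weeks. It was highest in JM12 (1568 CPM) and JM15 (1504 CPM) and lowest in JM1 (771 CPM), the brain in which the 150 members were highest, and its part in the members' values was not tested. APOEB was picked out above for its height at 39 weeks, so the sum at that age is not free of that choice. AIF1L, a relative of a calcium-binding protein of macrophages, had 78.3 to 94.99 CPM at 39 weeks, against 68.4 to 104 CPM at 27 weeks and 99.7 to 114 CPM at 5 weeks. It was lower at 39 than at 5 weeks (log2 fold change -0.29, edgeR adjusted p = 0.0117) and was not called against 27 weeks (0.07, adjusted p = 0.658). Other cell types had few named markers, with no call at 39 against 27 weeks. ACTA2, of endothelium and pericytes, had 189.5 and 203.5 CPM in JM13 and JM18, against 100.5, 115.3 and 147.7 CPM in JM1, JM12 and JM15. The erythrocyte sum was 95.7 CPM in JM18, with JM1 next at 21.04 CPM. Pineal and retina markers summed higher in JM1, JM12 and JM15 than in JM13 and JM18. AQP4, the only named astroglial marker, showed no such split, at 2.52 to 3.35 CPM at 39 weeks. Neither did the sum of 3 muscle markers. The list of skin, bone and cartilage had only the aggrecans ACANA and ACANB, and their sum showed no such split. ACANB was itself picked out above for its gap. The part of these in the members' values was not tested. Markers of neurons and oligodendrocytes had no named contig and were not checked.

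**Figure D5:**
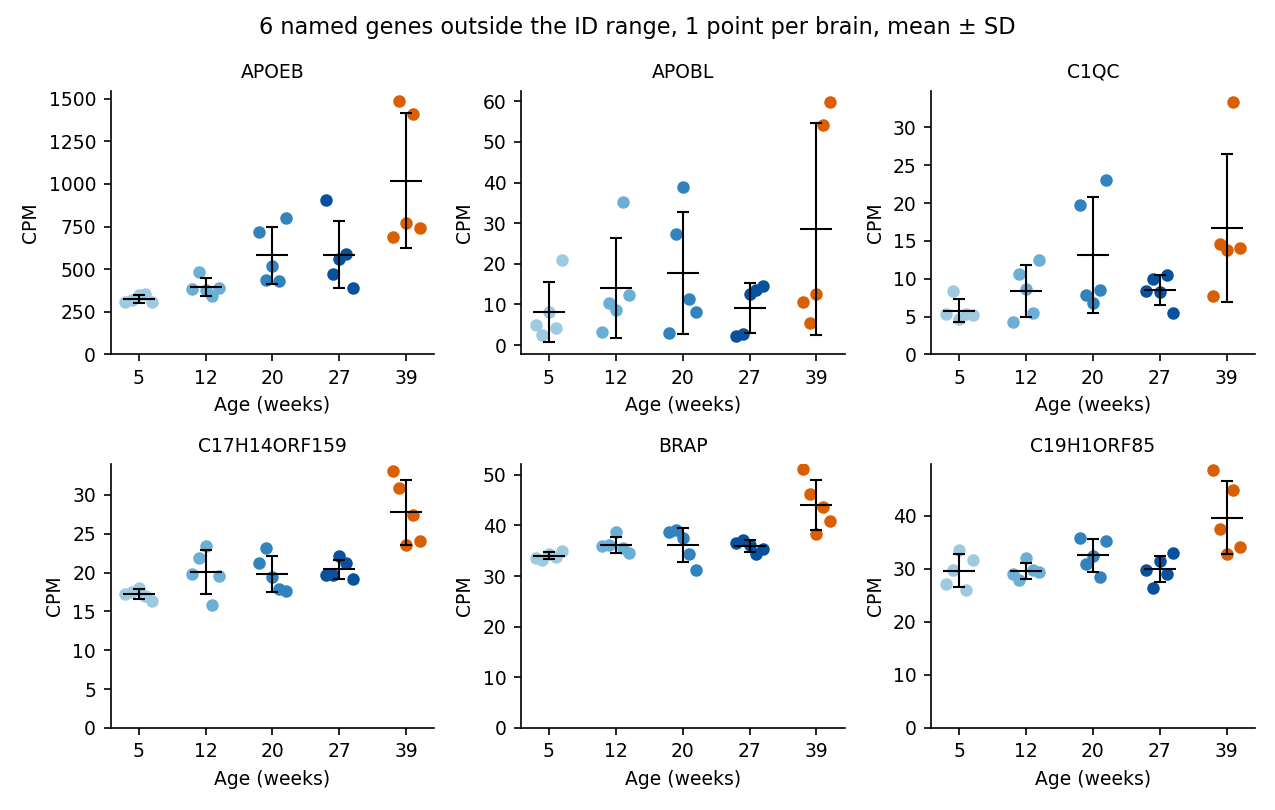
The 6 panels show CPM (y axis) by age in weeks (x axis) for APOEB, APOBL, C1QC, C17H14ORF159, BRAP and C19H1ORF85, with a point per brain and the mean ± SD over 5 brains. APOEB, APOBL and C1QC have 1 or 2 high brains at 39 weeks, and in C17H14ORF159 all brains of 39 weeks lie at or above the highest younger one.

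The 3 named genes called at 39 against 27 weeks changed little in size. C17H14ORF159 had 33.1, 30.9, 23.5, 27.4 and 24 CPM at 39 weeks, against 19.2 to 22.2 CPM at 27 weeks, and was the only one of the 18 whose brains of 39 weeks all lay above all younger brains. Its log2 fold change was 0.46 (standard error 0.11, edgeR adjusted p = 0.0480, over alternatives 0.00745 to 0.158). BRAP, a ubiquitin ligase that modulates Ras signalling, had 51.1, 46.2, 38.2, 43.7 and 40.9 CPM at 39 weeks, against 34.3 to 37.2 CPM at 27 weeks (log2 fold change 0.31, standard error 0.07, adjusted p = 0.0480, over alternatives 0.00737 to 0.169). C19H1ORF85, the counterpart of a human lysosomal membrane protein, had 48.6, 37.5, 32.8, 44.9 and 34.2 CPM at 39 weeks, against 26.4 to 32.9 CPM at 27 weeks (log2 fold change 0.42, standard error 0.10, adjusted p = 0.0486, over alternatives 0.00948 to 0.164). Without 1 library in turn the call held in 8 of 25 fits for C17H14ORF159, in 7 for BRAP and in 6 for C19H1ORF85. JM13 was the lowest brain of 39 weeks in all 3 and JM1 the highest, as in many members.

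The other named genes covered further roles. ACANB, the proteoglycan aggrecan of the extracellular matrix, averaged 37.1 ± 8.80 CPM at 39 weeks and 27.7 ± 8.01 CPM at 27 weeks (SD, n = 5 each), and differed from 5 weeks (log2 fold change 1.15, edgeR adjusted p = 2.96e-05) more than from 27 weeks (0.44, adjusted p = 0.157). ALKBH5, which removes the methyl mark m6A from RNA, averaged 40.2 ± 4.63 CPM at 39 weeks and 33.4 ± 1.47 CPM at 27 weeks (adjusted p = 0.0988). ATP2A2 (2 OF 2), a calcium pump of the endoplasmic reticulum, had 255 and 280 CPM in JM1 and JM12, against at most 184 CPM in the younger brains, while JM13, JM15 and JM18 lay within the younger range. ADRB1, the beta-1 adrenergic receptor, had the same 2 brains highest. The gene lists were loose and held genes of other kinds too, such as APOBEC2 (2 OF 2) in the lipid list and BSND in the synaptic vesicle list. Of all named contigs with a mean CPM of at least 5, 1.22% reached the gap of rank 150. Of 19 gene lists with a named contig, 3 held one that did so: 2 of 20 contigs of the lipid and cholesterol list, 1 of 5 of the extracellular matrix list and 1 of 2 of the complement list. For 39 against 27 weeks the median log2 fold changes of these lists were 0.00, 0.22 and 0.53 beside 0.00 over all contigs tested. The other 16 lists held 111 entries, some contigs of the lysosome list standing in the synaptic vesicle list too. No entry of these 16 lists reached the gap, among them lysosome (0 of 20), histone modifiers and chromatin remodelers (0 of 19) and oxidative phosphorylation (0 of 15). The lysosome list did not hold C19H1ORF85, which reached the gap. Of those 16 lists, the clock list had a median of 0.36 and 1 of 5 contigs called higher at 39 than at 27 weeks (background 0.546%). It was the one list of the 19 with a call in that comparison. At 39 against 12 weeks the clock list went both ways, with 2 contigs called higher (background 5.81%) and 1 lower (background 6.8%).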

How the data were processed

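Whole-brain RNA of 25 male killifish was sequenced by the authors as 50-base single reads from TruSeq libraries, which were mapped uniquely with Bowtie to annotated transcript contigs. The processing notes of the submitters list featureCounts 1.4.3-p1, TopHat2 2.0.6 and CASAVA too, with no step given for any. The deposited counts are whole numbers per contig with no normalization. The deposited RPKM values were scaled by the authors to contig size and mappable reads, and served here for contig length, level per length, an alternative scale and the pairing of names (shares of RPKM over ages equal to within 1e-05). A later table of deposited counts for 23546 gene models was used in a side check only, since its IDs could not be tied to the members.

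CPM was the count over the column sum times 1000000. The members and gene lists were chosen with earlier results of these data known. Counts were tested with edgeR 4.0.16 (TMM, filterByExpr, quasi-likelihood, R 4.3.3) over all contigs that passed the filter, and with DESeq2 1.42.0 beside it. Standard errors were computed from the fold change and the F statistic. The edgeR step was tested on simulated data. Python 3.11.15, NumPy 2.4.6, pandas 2.3.3 and matplotlib 3.10.9 were used for the rest. Alternatives were other factors, no filter, w0w1 (a mark in 6 titles) as a term, the fit without those 6 libraries, other scales for the choice, and the fit without each library in turn. Amplified reads carried no molecular identifiers, so that counts overstate the number of independent molecules. Genes were named by a rule: the 20 members of largest gap, the 10 with most reads, the 10 with the smallest largest adjusted p over the 4 comparisons with 39 weeks, those at the edge of the choice and the nearest genes of ranks 1 to 3, of which the text gives the clearest examples. The named contigs outside the ID range, ranks 45 and 58, rank 101, and members without overlap that fall outside this rule were chosen after their values were seen. The deposited contig descriptions and the later RPKM values were not used.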

Additional observations from a re-analysis of the deposited data

Results flagged for a closer look

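In 9 cases a brain lay apart from the other 4 of its age by Dixon's 95% criterion. It was applied within each age to the members' medians and to part of the genes given brain by brain, without ranks 6, 85 and 99. Chance gives such a case in about 1 of 20 groups, and the 9 cases were not weighed against the number of groups checked. JM62 had the lowest median over the 150 members at 27 weeks, at -0.035, with the next brain at 0.13. Rank 1 had a single high brain at 5 weeks (JM101, 24.2 CPM, next 0.77 CPM), at 20 weeks (JM75, 34.2 CPM, next 0.63 CPM) and at 27 weeks (JM66, 30.4 CPM, next 0.87 CPM). Rank 2 was high in JM101 of 5 weeks, with 10.7 CPM beside at most 7.11 CPM. Rank 3 was high in JM75 of 20 weeks, with 74.2 CPM beside at most 22.9 CPM. Among named genes outside the ID range, APOBL was high in JM109 of 12 weeks (35.1 CPM, next 12.3 CPM). C1QC was high in JM101 of 5 weeks (8.42 CPM, next 5.32 CPM) and in JM15 of 39 weeks (33.4 CPM, next 14.5 CPM). JM101 appears in 3 of these cases and JM75 in 2.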

How the results depend on the processing

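With DESeq2, 57 members were called higher at 39 than at 27 weeks, 42 at 39 than at 20 weeks and 22 in all 4 comparisons, against 16, 2 and 0 with edgeR. Without the 6 libraries marked w0w1 the counts were 2 against 27 weeks, 0 against 20 weeks and 32 against 12 weeks, 96 against 5 weeks and 14 for 12 against 5 weeks, in a fit with fewer libraries. For 39 against 12 and 39 against 5 weeks this moved the count more than the tool or any single library did. Leaving out each library in turn gave 0 to 60 members for 39 against 27 weeks, 0 to 21 for 39 against 20 weeks, 70 to 112 for 39 against 12 weeks, 104 to 126 for 39 against 5 weeks, 0 to 19 for all 4 and 14 to 34 for 12 against 5 weeks. The highest count against 27 weeks, against 20 weeks and in all 4 came without JM13. Members without overlap numbered 7 to 13, with 13 without JM13, 12 without JM72 and 11 without JM75. With the members held fixed, leaving out a brain can only keep or raise that count, so its range does not measure stability. Of the 150 members, 82 were chosen again with medians in place of means, 83 without the w0w1 libraries and 98 to 148 without each library in turn. The median gap was 0.30 with medians, 0.26 without the w0w1 libraries and 0.27 to 0.36 without each library in turn. The other size factors, the missing filter and w0w1 as a term kept each count within 1.5 times. Of single genes, the log2 fold change of rank 5 for 39 against 27 weeks turned to -0.036 with w0w1 as a term and spanned -0.38 to 0.72 without each library in turn, that of rank 20 spanned -0.23 to 0.93 and that of rank 1 spanned 0.095 to 4.53; the cause was not tested. All 3 were uncalled throughout. No paired analysis was possible because each animal gave 1 library and the labels tie no animals across ages. The repeat of the tests in the later count table was not run, since no member could be tied to it by ID.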

Other observations

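The conditions on CPM and gap were also applied to the later table of 23546 gene models, a step chosen after the data were seen. It counts the same libraries again and gives no independent support. Its 150 genes of widest gap, out of 14582, had a largest gap of 0.94, a median of 0.35 and a smallest of 0.29. The division of the 5 brains of 39 weeks was there as well: the median over these 150 genes was 0.71 in JM12, 0.70 in JM1, 0.70 in JM15, 0.41 in JM18 and 0.34 in JM13, with younger brains between -0.23 and 0.27. Of them, 3 had all brains of 39 weeks above all younger brains, against 0.137% of the 14582.

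The 150 genes lowest at 39 weeks were lowest in the same 3 brains. Their median difference from the younger mean was -0.98 in JM1, -0.89 in JM12, -0.86 in JM15, -0.57 in JM18 and -0.33 in JM13. JM13 lay within the range of the younger brains there, since JM69 and JM72 of 27 weeks had -0.37 and -0.34, whereas among the members all 5 brains of 39 weeks lay above all younger brains. In that set edgeR called 16 genes lower at 39 than at 27 weeks (background 0.528%), 7 at 39 than at 20 weeks (background 0.218%), 100 at 39 than at 12 weeks (background 6.8%) and 117 at 39 than at 5 weeks (background 18.7%), and 2 of the 150 had no overlap (background 0.078%), again as a description of a choice made on these values.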
